A study of Mus musculus with 12 samples.

Results

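The EGR and NR4A immediate early factors are 6 transcription factor genes, Egr1, Egr2, Egr3, Nr4a1, Nr4a2 and Nr4a3, taken by symbol from a table of 54532 mouse genes. Their RNA was measured by bulk RNA sequencing in splenic eosinophils sorted as SSChigh 4get+ cells from IL-5tg_4get/C57BL/6 mice. Every group carried the same 2 alleles, an interleukin-5 transgene that drives eosinophilia and the 4get reporter, which marks cells with an active interleukin-4 gene by green fluorescence. The cells were held in culture for 4 h in 4 groups of 3 libraries. One group received both stimuli, 5 µg/mL of the anti-Siglec-F antibody with 10 ng/mL of recombinant mouse interleukin-33 (IL-33). The other groups received IL-33, the antibody, or a rat IgG2a isotype control. Siglec-F is a sialic acid-binding inhibitory receptor of mouse eosinophils, and IL-33 is an alarmin read by the receptor ST2. The labels do not state whether cells given IL-33 alone also received the control antibody. Separate animals or cultures are not named for the libraries either, and p-values therefore measure the spread between libraries alone, which may be technical. Eosinophils that develop under an interleukin-5 transgene are expanded and exposed to that cytokine in the animal, which limits them as a model of resting cells.

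Egr1, Egr2 and Egr3 encode zinc finger factors that bind GC-rich DNA. Their genes are switched on within minutes by growth factor, antigen receptor and stress signals, through ERK and the serum response factor with its ETS partners, and the proteins are held back by the corepressors NAB1 and NAB2. Nr4a1 (Nur77), Nr4a2 (Nurr1) and Nr4a3 (Nor1) encode orphan nuclear receptors whose activity follows from how much of them is made. They are induced by calcium, CREB and NF-kB signals, bind the NBRE element, and are known in myeloid cells and T cells as brakes on inflammatory and activation programmes.

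All 12 libraries held between 11686603 and 17137988 counts. In the combined group, libraries 2 and 3 differed from the rest, with 15555 and 29990 genes detected against 19138 to 24485 elsewhere, and with 3.08% and 3.57% of counts in ribosomal protein genes against 1.52% to 2.43% elsewhere. IL-33 library 2 had 2.86% of counts in mitochondrial genes, combined library 2 had 2.56%, and the others 1.10% to 1.77%. T cell and ILC2 markers, 11 genes, summed to 132 CPM in IL-33 library 2, against 30.8 to 65.9 CPM elsewhere. B and plasma cell markers, 8 genes, summed to 1110 CPM in IL-33 library 2 and 1000 CPM in isotype library 2. In combined library 2 they summed to 809 CPM and in antibody library 2 to 794 CPM, against 547 to 709 CPM elsewhere. Library 2 was thus the highest of each group for these markers. The part of these lymphocyte markers in the results was not tested. Eosinophil markers were present throughout. Their 11 genes, none of them at 0 in any group, summed to between 5060 and 14600 CPM (a count scaled to the size of its library). Monocyte and macrophage markers, 12 genes, summed to 1370 to 1770 CPM with both stimuli, 1170 to 1490 with IL-33, 851 to 1080 with the antibody and 762 to 877 with isotype. Their part in the results was not tested. None of the 12 was at 0, and Csf1r was the most abundant, at 1020 ± 66.5, 844 ± 87.7, 623 ± 106 and 433 ± 30.8 CPM in the same order of groups (SD, n = 3 each), which is most of each sum. Of the 12 genes 7 had a positive log2 fold change with both stimuli against isotype (median 0.33), and edgeR called Csf1r and Spic higher and Ccr2 lower (-1.14, adjusted p = 0.0188). With IL-33 against isotype 5 were positive (median -0.213), and Csf1r and Spic were called higher. In bulk RNA, a smaller share of expressing cells and less RNA per cell cannot be told apart.

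The RefSeq promoter windows of GRCm38.p6, from 250 bases before to 50 bases after an annotated start, matched 4 of the 6 genes, namely Egr2, Nr4a1, Nr4a2 and Nr4a3. Egr1 and Egr3 are named without one. Egr2 and Nr4a1 are printed because they had the largest changes of each family, and the other NR4A genes because they share the family and moved less. Capitals mark matches, on either strand, to the CRE half-site TGACG, the full CRE TGACGTCA, the AP-1 site TGANTCA, the EGR site GCGNGGGCG, the NBRE AAAGGTCA, the CArG box of the serum response factor and the kappa B site. Half-sites inside a full CRE would count for both. Of the 5 Egr2 windows the third is shown. Windows 3, 4 and 5 overlap and hold the same matches, while window 1 holds 2 overlapping kappa B sites and window 2 a CArG box, and neither holds a CRE half-site.
Egr2, chr10:67537619-67537918, plus strand: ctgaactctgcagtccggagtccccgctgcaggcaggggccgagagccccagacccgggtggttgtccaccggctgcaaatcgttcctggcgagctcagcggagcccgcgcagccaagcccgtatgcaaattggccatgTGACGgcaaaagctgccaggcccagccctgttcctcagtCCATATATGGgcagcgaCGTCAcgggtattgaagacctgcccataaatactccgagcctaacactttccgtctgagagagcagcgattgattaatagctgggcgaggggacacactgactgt
Nr4a1, chr15:101266596-101266895, plus strand: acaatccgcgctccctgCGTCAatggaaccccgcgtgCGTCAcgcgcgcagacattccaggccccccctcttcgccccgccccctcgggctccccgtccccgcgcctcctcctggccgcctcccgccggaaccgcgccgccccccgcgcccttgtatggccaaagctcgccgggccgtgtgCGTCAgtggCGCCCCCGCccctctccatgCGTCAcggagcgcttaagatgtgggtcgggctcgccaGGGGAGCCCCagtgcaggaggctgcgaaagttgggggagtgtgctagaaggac
Nr4a3, chr4:48045055-48045354, plus strand: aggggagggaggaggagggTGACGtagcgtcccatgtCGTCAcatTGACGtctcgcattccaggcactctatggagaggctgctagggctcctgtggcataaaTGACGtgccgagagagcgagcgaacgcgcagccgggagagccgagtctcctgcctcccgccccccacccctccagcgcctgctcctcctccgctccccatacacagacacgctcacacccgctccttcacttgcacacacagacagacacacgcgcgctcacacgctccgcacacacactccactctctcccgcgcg
Nr4a2, chr2:57123954-57124253, minus strand: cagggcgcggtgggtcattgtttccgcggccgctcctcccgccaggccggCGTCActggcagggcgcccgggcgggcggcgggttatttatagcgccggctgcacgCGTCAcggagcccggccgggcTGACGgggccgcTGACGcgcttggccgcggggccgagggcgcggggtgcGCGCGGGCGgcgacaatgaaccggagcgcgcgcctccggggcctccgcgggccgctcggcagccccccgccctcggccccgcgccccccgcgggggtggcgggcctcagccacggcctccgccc
The printed Egr2 window held a CArG box at position -72 from the start, with a CRE half-site on each side at -111 and -55. Each NR4A window held 4 CRE half-sites, those of Nr4a1 at -233, -213, -69 and -40 and those of Nr4a3 at -231, -213, -205 and -147. Nr4a1 and Nr4a2 held 1 EGR site each, at -60 and -74, and Nr4a1 a kappa B site at -3. No full CRE, AP-1 site or NBRE was in these 4 windows. Among 32851 mouse windows of the same length, 20.8% held a CRE half-site, 1.63% a CArG box, 5.55% an EGR site, 8.46% a kappa B site, 1.79% a full CRE, 7.81% an AP-1 site and 1.51% an NBRE. A match describes the letters and is not evidence of binding.

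Egr2 had the largest change of the 6 genes. Egr2 (ENSMUSG00000037868, mm10 chromosome 10, 67535475 to 67542188, plus strand) is the family member best known for restraining activated T cells and for macrophage gene programmes. Its RNA stood at 163.5, 61.1 and 109.9 CPM in the 3 libraries with both stimuli and at 113.0, 87.8 and 27.2 CPM with IL-33. It stood at 31.7, 31.7 and 41.1 CPM with the antibody and at 16.9, 18.2 and 14.7 CPM with isotype. Every stimulated library, of any kind, lay above every isotype library, while the third IL-33 library lay below all 3 antibody libraries. In edgeR's quasi-likelihood test, adjusted over 14547 genes, Egr2 was 6.70-fold higher with both stimuli than with isotype (log2 fold change 2.74, SE 0.438, adjusted p = 0.0018). With IL-33 against isotype it was 4.57-fold higher (log2 fold change 2.19, SE 0.430, adjusted p = 0.0163).

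Nr4a1 rose in the same comparisons as Egr2. Nr4a1 (ENSMUSG00000023034, chromosome 15, 101254269 to 101274795, plus strand) encodes Nur77, widely used as a reporter of antigen receptor signalling in lymphocytes. The combined libraries held 200.7, 86.1 and 208.6 CPM, and the IL-33 libraries 235.3, 144.2 and 57.8 CPM. The antibody libraries held 34.0, 47.6 and 50.2 CPM, and the isotype libraries 34.3, 43.5 and 38.3 CPM. Both groups with IL-33 were clear of both groups without it, and the antibody and isotype libraries were interleaved. Against isotype, Nr4a1 was 4.27-fold higher with both stimuli (log2 fold change 2.09, SE 0.420, adjusted p = 0.0077) and 3.77-fold higher with IL-33 (1.91, SE 0.417, adjusted p = 0.0296).

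Egr3 also rose with both stimuli and with IL-33, by less. Egr3 (ENSMUSG00000033730, chromosome 14, 70077203 to 70082614, plus strand) is the close partner of Egr2 in lymphocyte tolerance. Its levels were 33.6, 44.4 and 34.6 CPM with both stimuli, 73.8, 33.0 and 32.9 CPM with IL-33, 18.1, 20.0 and 24.3 CPM with the antibody, and 13.9, 17.5 and 16.1 CPM with isotype. No library with IL-33 overlapped a library without it, and the first IL-33 library was the highest of the 12. Egr3 was 2.95-fold higher with IL-33 than with isotype (log2 fold change 1.56, SE 0.282, adjusted p = 0.00969) and 2.37-fold higher with both stimuli (1.25, SE 0.281, adjusted p = 0.0144).

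**Figure D1:**
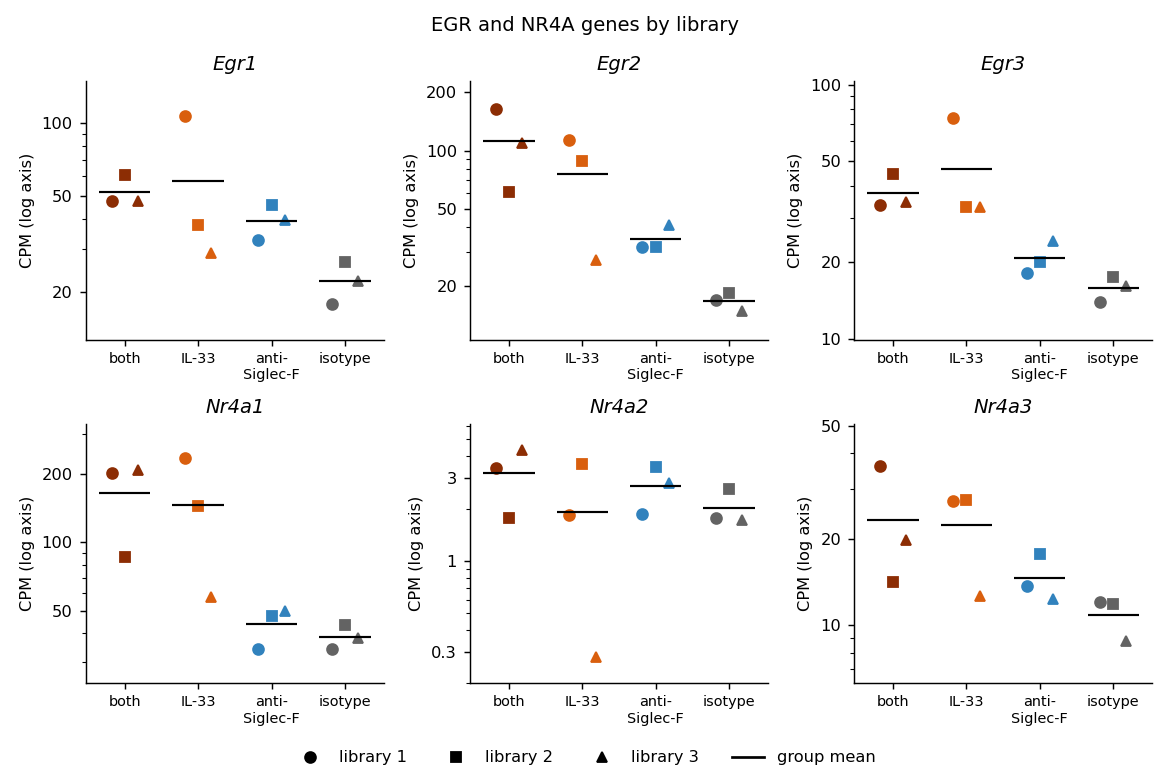
CPM on a log axis of each gene in each library, grouped as both stimuli, IL-33, anti-Siglec-F and isotype; circles, squares and triangles are libraries 1, 2 and 3 and the line is the group mean. In every panel the third IL-33 library is the lowest of its group, at 27.2 CPM for Egr2 and 57.8 CPM for Nr4a1. For Egr3 it is nearly level with the second, at 32.89 and 32.97 CPM. The isotype libraries lie close together.

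Egr1 had higher values in every stimulated group than in isotype, without a call. Egr1 (ENSMUSG00000038418, chromosome 18, 34859823 to 34864984, plus strand) is the prototype of the family and a usual early readout of ERK activity. It stood at 47.6, 60.65 and 47.5 CPM with both stimuli, 106.4, 37.9 and 28.8 CPM with IL-33, 32.8, 45.6 and 39.6 CPM with the antibody and 17.8, 26.6 and 22.2 CPM with isotype. No stimulated library overlapped the isotype libraries, and 1 IL-33 library held 3.69 times the level of another. The log2 fold change was 1.23 with both stimuli (SE 0.374, adjusted p = 0.0537) and 1.38 with IL-33 (SE 0.375, adjusted p = 0.0794). Without the first IL-33 library the value with IL-33 was 0.59 (adjusted p = 0.378), and it reached 1.74 without the third.

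Nr4a3 behaved likewise at lower levels. Nr4a3 (ENSMUSG00000028341, chromosome 4, 48045153 to 48086447, plus strand) encodes Nor1, a factor that acts redundantly with Nur77 in several blood lineages. Its levels were 36.2, 14.1 and 19.8 CPM with both stimuli, 27.3, 27.4 and 12.6 CPM with IL-33, 13.7, 17.8 and 12.3 CPM with the antibody and 12.01, 11.8 and 8.78 CPM with isotype. Each stimulated library was above the highest isotype library, by little in the third IL-33 library and the third antibody library. The log2 fold change against isotype was 1.10 with both stimuli (SE 0.347, adjusted p = 0.0599) and 1.04 with IL-33 (SE 0.347, adjusted p = 0.162).

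Nr4a2 was near the lower limit of measurement, at 4 to 64 counts per library. Nr4a2 (ENSMUSG00000026826, chromosome 2, 57106830 to 57124003, minus strand) encodes Nurr1, best known for the development of dopamine neurons. It stood at 3.43, 1.77 and 4.36 CPM with both stimuli, 1.83, 3.62 and 0.279 CPM with IL-33, 1.86, 3.45 and 2.80 CPM with the antibody and 1.76, 2.58 and 1.72 CPM with isotype. All groups overlapped, and the lowest library, the third of IL-33, rests on 4 counts. The log2 fold change was 0.66 with both stimuli (95% interval -0.67 to 1.99) and -0.09 with IL-33 (-1.45 to 1.26), and both intervals span 0.

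In IL-33 against isotype, which asks what the cytokine did by itself, 3 of the 6 genes were called, all of them higher, where 2.21% of the 14547 genes tested were called and 1.46% were called higher. Libraries did not overlap for 5 of 6, where 11% of genes tested were higher without overlap. The median log2 fold change was 1.47 over the 6 genes and -0.0116 over all genes. These calls turned on single libraries. Egr2 and Nr4a1 were each called in 1 of 6 leave-one-library-out fits, the fit without the third IL-33 library (adjusted p = 0.000371 and 0.0013). In the other fits their adjusted p reached 0.0928 and 0.166. In that same fit Egr1 and Nr4a3 were called as well (adjusted p = 0.0118 and 0.0356), and 5 members passed in all. Egr3 was called in 4 of 6 fits and lost the call without the first or the third isotype library (adjusted p = 0.0654 and 0.0532). With libraries paired by number and the fit limited to the 2 groups, 9.08% of genes were called and Nr4a3 was added (adjusted p = 0.0111).

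Both stimuli against isotype called the same 3 genes, Egr2, Nr4a1 and Egr3, where 9.88% of genes tested were called and 5.47% were called higher. No overlap between libraries was found for 5 of 6 genes, against 12% of genes tested. The median log2 fold change was 1.24 for the 6 genes and -0.0468 for all genes. Egr2 and Nr4a1 were called in 6 of 6 leave-one-library-out fits, with adjusted p up to 0.0155 and 0.0455. Egr3 was called in 4 of 6, and not without the first or the third isotype library (adjusted p = 0.0742 and 0.0583). Egr1 was called without the first combined library (adjusted p = 0.0493) and Nr4a3 without the second (adjusted p = 0.0258). A fit without combined libraries 2 and 3 leaves 1 combined library, whose spread is then assumed to be like that of the other groups, so its values have no replicate check. It called 4.06% of genes and gave an adjusted p of 0.0014 for Egr2, 0.0105 for Nr4a1, 0.0122 for Nr4a3 and 0.124 for Egr3.

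**Figure D2:**
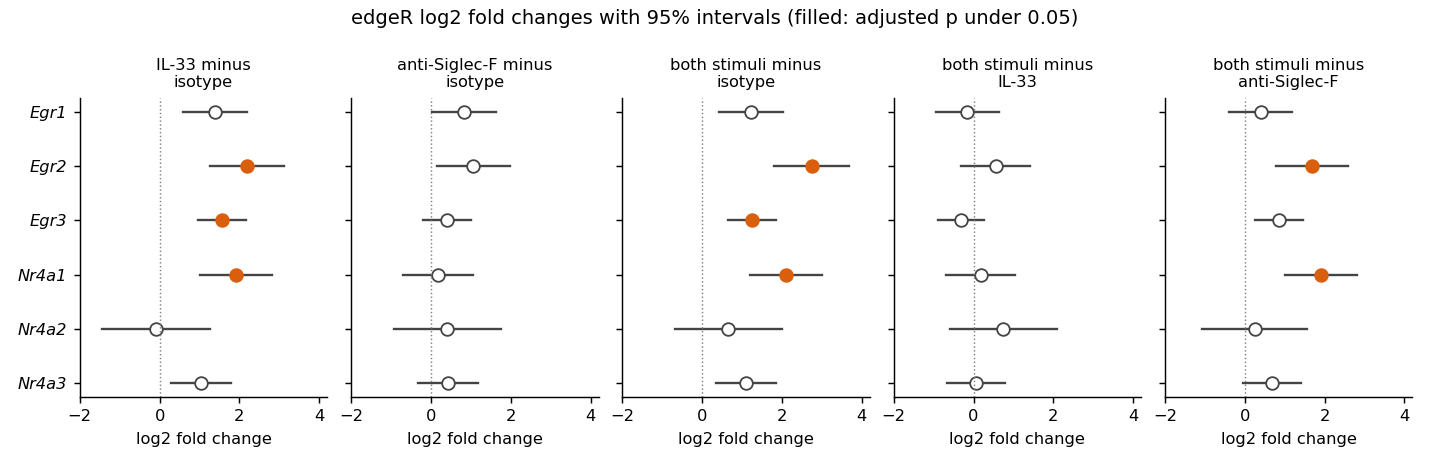
Log2 fold changes of the 6 genes with 95% intervals in 5 comparisons, one panel each; filled points have an adjusted p under 0.05 in edgeR. Egr2, Egr3 and Nr4a1 are filled in both comparisons of IL-33-treated cells with isotype, and Egr2 and Nr4a1 against the antibody alone.

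The antibody alone against isotype asks what binding Siglec-F did without the cytokine. No member was called, where 0.0% of genes tested were called, and every adjusted p in edgeR was 1. Without adjustment, 370 genes and 2 of the 6 members had p under 0.05. These 2 were Egr2, 34.8 ± 5.43 CPM with the antibody and 16.6 ± 1.77 CPM with isotype (log2 fold change 1.07, unadjusted p = 0.0243), and Egr1, 39.3 ± 6.43 and 22.2 ± 4.42 CPM (0.83, unadjusted p = 0.0439; SD, n = 3 each). Libraries of Egr1, Egr2, Egr3 and Nr4a3 did not overlap, 4 of 6, where 6.73% of genes tested were higher without overlap. The other log2 fold changes were 0.40 for Egr3, 0.42 for Nr4a2, 0.42 for Nr4a3 and 0.18 for Nr4a1, whose interval ran from -0.69 to 1.06. DESeq2 and limma voom called 12 and 10 genes and no member. A fit to these 2 groups alone called 20 genes, 0.148%, Egr2 among them (adjusted p = 0.0311). A fit of all genes with at least 1 count called 70 genes, among them Egr1 (adjusted p = 0.036) and Egr2 (adjusted p = 0.0002). That fit keeps genes with very few counts, which the filter of the fit reported removes.

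Both stimuli against the antibody alone asks what IL-33 added to the antibody. Egr2 (log2 fold change 1.68, SE 0.418, adjusted p = 0.0398) and Nr4a1 (1.91, SE 0.417, adjusted p = 0.0234) rose, 2 of 6 members where 4.42% of genes tested were called and 2.7% were called higher. Libraries of Egr1, Egr2, Egr3 and Nr4a1 did not overlap, 4 of 6 where 10.0% of genes tested were higher without overlap. Egr3 had a log2 fold change of 0.85 (adjusted p = 0.0968), Nr4a3 of 0.68, Egr1 of 0.40 and Nr4a2 of 0.24. Both calls were lost without the third combined library and without each of the 3 antibody libraries, with adjusted p up to 0.16 for Egr2 and 0.114 for Nr4a1. The fit with 1 combined library called 1.37% of genes and gave an adjusted p of 0.0302 for Egr2 and 0.0328 for Nr4a1.

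Against IL-33 alone, both stimuli changed none of the 6 genes in edgeR, where 0.0% of genes tested were called. Of all genes 2526 had an unadjusted p under 0.05, but no member did, and neither DESeq2, with 470 calls, nor limma voom, with 0, called a member. With 1 library left out, edgeR called 0 to 2116 genes, the most without the first combined library, and 0 members each time. The combined and IL-33 libraries averaged 111.5 ± 51.2 and 76.0 ± 44.1 CPM for Egr2, 165.1 ± 68.5 and 145.8 ± 88.8 CPM for Nr4a1, and 37.5 ± 5.98 and 46.6 ± 23.6 CPM for Egr3. Egr1 averaged 51.9 ± 7.58 and 57.7 ± 42.4 CPM, Nr4a3 23.4 ± 11.4 and 22.4 ± 8.49 CPM, and Nr4a2 3.19 ± 1.31 and 1.91 ± 1.67 CPM. For all 6 genes the libraries of these groups overlapped, where 6.98% of genes tested were higher without overlap. The 95% intervals of the log2 fold change were wide, -0.32 to 1.43 for Egr2, -0.68 to 1.04 for Nr4a1, -0.90 to 0.27 for Egr3, -0.94 to 0.63 for Egr1, -0.67 to 0.79 for Nr4a3 and -0.59 to 2.09 for Nr4a2. They do not show that the groups were alike.

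The interaction is the change made by the antibody in the presence of IL-33 less its change in the absence of IL-33, and it tests whether the stimuli add on the log scale. No gene was called in edgeR, where 1150 had an unadjusted p under 0.05 and none of them was a member. DESeq2 called 3 genes and limma voom 0, without a member. The estimates were -0.98 for Egr1 (95% interval -2.10 to 0.14, unadjusted p = 0.081), -0.71 for Egr3 (-1.55 to 0.13, unadjusted p = 0.0927), -0.51 for Egr2, -0.36 for Nr4a3, 0.34 for Nr4a2 and -0.0037 for Nr4a1 (-1.22 to 1.22).

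As the ratio of the highest to the lowest library, the spread was wider within the IL-33 group than within any other for 5 of 6 genes, all but Nr4a3. The highest IL-33 library held 4.15 times the lowest for Egr2, 4.07 times for Nr4a1, 3.69 times for Egr1, 2.24 times for Egr3 and 2.17 times for Nr4a3. The third IL-33 library was the lowest of its group for 6 of 6 members and for 20 of 24 other immediate early genes, against 34.3% of all genes tested. For Egr3 it was nearly level with the second, at 32.89 and 32.97 CPM. Atf3, a stress-induced factor, stood at 20.2, 19.1 and 5.17 CPM in the IL-33 libraries, and Fosl1, an AP-1 subunit, at 9.67, 10.2 and 1.33 CPM. That library was not the lowest for Nab1, at 223, 165 and 198 CPM, or for Csf1r, at 945, 790 and 795 CPM. Its neutrophil markers, 10 genes, summed to 579 CPM, against 1690 and 1090 CPM in the other IL-33 libraries and 1160 to 2340 CPM with isotype, and their part in the result was not tested. In the combined group the second library was the lowest for 4 of 6 members (Egr2, Nr4a1, Nr4a2 and Nr4a3) and the highest for the other two, Egr1 and Egr3.

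**Figure D3:**
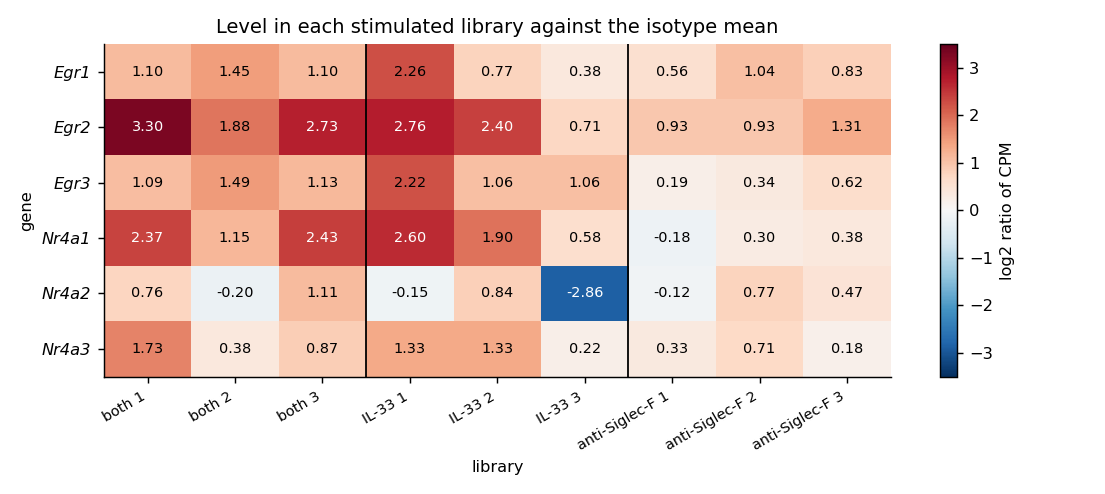
Log2 ratio of the CPM in each stimulated library (columns) to the isotype mean, for the 6 genes (rows); numbers in the cells are the ratios. Egr2 is above the isotype mean in 9 of 9 libraries, by 0.71 to 3.30, and Nr4a1 by 0.58 to 2.6 in the 6 libraries with IL-33 and by -0.18 to 0.38 in those with the antibody alone.

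The deviations of the 12 libraries from their group means, on the log2 CPM scale, were compared between the 6 genes. Egr1 went with Egr3 (Pearson r = 0.938), and Egr2 with Nr4a1 (r = 0.932), Nr4a3 (0.861) and Nr4a2 (0.831). Egr2 with Egr1 and Egr3 gave r = 0.505 and 0.365, and Egr3 with Nr4a3 gave 0.072. Within the NR4A genes r was 0.822 for Nr4a1 and Nr4a2, 0.76 for Nr4a1 and Nr4a3, and 0.738 for Nr4a2 and Nr4a3. These are descriptions over 12 libraries that share 3 replicate numbers and the depth of each library, with the third IL-33 library far from the rest for Nr4a2. For Egr1 the first IL-33 library stood apart, at 106.4 CPM against 37.85 and 28.84 CPM in the others of its group. It did so for Egr3 as well, at 73.8 CPM against 32.97 and 32.89 CPM. The r of Egr1 with Egr3 was not computed without that library. By the highest Pearson r of log2 CPM over the 12 libraries, group differences included, the genes most like Egr2 were Srxn1 (0.977), Tes (0.977) and Mafg (0.976), and those most like Nr4a1 were Abcf2 (0.984), Cd14 (0.976) and Pwp1 (0.964). Cd14, the lipopolysaccharide coreceptor, averaged 44.1 CPM with both stimuli, 26.8 with IL-33, 3.62 with the antibody and 3.84 with isotype. Egr1 was most like Egr3 (0.883), Apobec1 (0.874) and Csrnp1 (0.862), and Egr3 most like Zbtb7b (0.922), Adora2a (0.912) and Nfkbie (0.912). For Nr4a3 they were Eid3 (0.974), Tbcel (0.946) and Tnfaip2 (0.945), and for Nr4a2 Rgs1 (0.878), Ddit3 (0.875) and Cdkn2b (0.871).

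Per kilobase of the gene length in the authors' table, the order of levels changed below the top. Nr4a1 had the highest mean in each group, at 47.1 CPM per kilobase with both stimuli, 41.5 with IL-33, 12.5 with the antibody and 11.03 with isotype. With both stimuli Egr2, at 32.8 CPM per kilobase, overlapped Nr4a1 and was clear of Egr1 (11.6), which was clear of Egr3 (8.52). With IL-33 the first 4, Nr4a1, Egr2 (22.4), Egr1 (12.9) and Egr3 (10.6), overlapped each with the next, and with the antibody Nr4a1, Egr2 (10.2) and Egr1 (8.77) did. With isotype Nr4a1 was clear of Egr1 (4.94) and Egr2 (4.89), which overlapped, followed by Egr3 (3.59), Nr4a3 (1.81) and Nr4a2 (0.499), each clear of its neighbour. Nr4a3 and Nr4a2 were the lowest of the 6 in all groups.

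**Figure D4:**
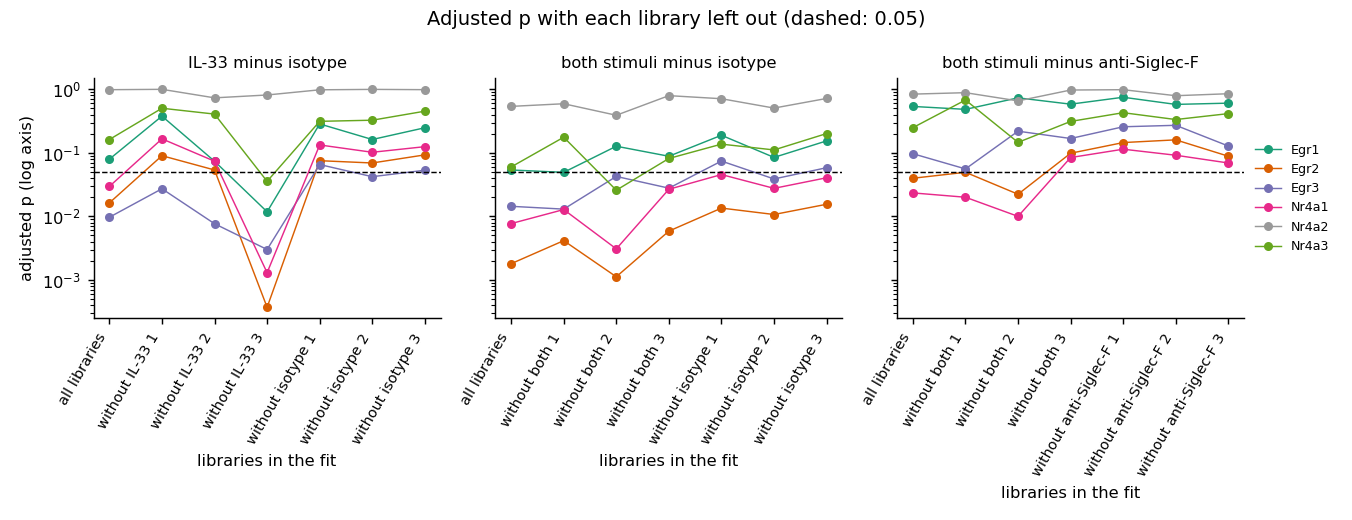
Adjusted p of each gene (log axis, edgeR) with all libraries and with each library of the compared groups left out, in 3 comparisons; the dashed line is 0.05. For IL-33 against isotype the lowest points of Egr2 and Nr4a1, 0.000371 and 0.0013, are those without the third IL-33 library, and for both stimuli against isotype all points of these genes lie under the line.

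Among the cofactors of EGR proteins and the factors upstream of them, 7 of 9 listed genes were tested. Nab1, a corepressor of EGR factors, was the member of this list that rose in each of 3 comparisons. It averaged 206 ± 51.0 CPM with both stimuli, 195 ± 28.8 with IL-33, 123 ± 7.40 with the antibody and 90.3 ± 3.47 with isotype (SD, n = 3 each). Its log2 fold change was 1.19 with both stimuli against isotype (adjusted p = 0.00141) and 1.11 with IL-33 against isotype (adjusted p = 0.00517), called in 6 of 6 leave-one-library-out fits in each. Against the antibody alone it was 0.74 with both stimuli (adjusted p = 0.0348), called in 2 of 6. Nab2, the second corepressor and a known EGR1 target, stood at 55.2, 47.2 and 68.0 CPM with both stimuli, 47.6, 25.3 and 15.9 with IL-33, 42.2, 35.1 and 55.1 with the antibody, and 26.6, 27.4 and 21.9 with isotype. It rose with both stimuli against isotype (log2 fold change 1.17, adjusted p = 0.0327), a call found in 2 of 6 such fits. There Elk1, an ETS partner of the serum response factor, also rose (0.85, adjusted p = 0.0445; 1 of 6) and Elk3, a related repressor, fell by 0.94 (adjusted p = 0.0386; 2 of 6). Thus 3 rose and 1 fell with both stimuli, where 9.88% of all genes were called, and 1 rose with IL-33, where 2.21% were. In the fit with 1 combined library, Nab1 had an adjusted p of 0.000597 against isotype, and no other gene of the list was called. The list medians were 0.541 and 0.227, against -0.0468 and -0.0116 for all genes. Egr4, the fourth family member, reached at most 0.954 CPM in any library and was not tested.

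The partners of NR4A receptors and the calcineurin, NFAT and CREB route counted 13 tested genes of 14. With both stimuli against isotype 2 of 13 were called, where 9.88% of all genes were, and 6 of 13 had an unadjusted p under 0.05, as did 3860 of the 14547 genes. With IL-33 against isotype edgeR called none, with 3 at an unadjusted p under 0.05. DESeq2 called 0, and limma voom, with 2089 calls over all genes, called 1 higher and 1 lower. With both stimuli against isotype Ppp3r1, the calcineurin regulatory subunit, rose (log2 fold change 0.49, adjusted p = 0.0337, called in 1 of 6 leave-one-library-out fits). Crtc3, a CREB coactivator, fell to 67.3 ± 16.7 CPM with both stimuli, against 121 ± 6.35 CPM with isotype (-0.84, adjusted p = 0.00968, 5 of 6 fits). It also fell against the antibody alone (-0.79, adjusted p = 0.0246, 1 of 6 fits). In the fit with 1 combined library the adjusted p of these 3 values was 0.159, 0.205 and 0.431. The medians were -0.241 with both stimuli and -0.00945 with IL-33, against -0.0468 and -0.0116 for all genes.

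Of 24 tested immediate early genes outside the 2 families, 8 rose and 1 fell with both stimuli against isotype, where 9.88% of all genes were called, and 3 rose with IL-33, where 2.21% were. With both stimuli DESeq2, with 2404 calls over all genes, called 10 higher and 1 lower, and limma voom 8 and 1. With IL-33 DESeq2, with 806 calls over all genes, called 8 higher and 2 lower. There limma voom, with 2089 calls over all genes, called 11 higher and 2 lower. Fosl1 stood at 14.7 ± 9.70 CPM with both stimuli and 1.39 ± 0.0559 CPM with isotype (log2 fold change 3.40, adjusted p = 0.0102), Atf3 at 18.9 ± 7.73 and 3.56 ± 0.712 CPM (2.41, adjusted p = 0.00573), Ier3 at 68.4 ± 27.9 and 13.1 ± 4.10 CPM (2.38, adjusted p = 0.00291), and Gadd45b at 294 ± 124 and 63.6 ± 5.29 CPM (2.21, adjusted p = 0.00301). Maff, Ier5, Junb and Csrnp1 also rose, and Klf2, a quiescence factor, fell by 0.99. Of these 9, Atf3, Ier3, Ier5 and Gadd45b were called in 6 of 6 leave-one-library-out fits, and the others in 3 to 5. The fit with 1 combined library tested 25 genes and called 8 higher and 1 lower, without Junb (adjusted p = 0.0601). With IL-33 alone against isotype Atf3 (2.05, adjusted p = 0.032), Ier3 (1.64, adjusted p = 0.0498) and Ier5 (1.03, adjusted p = 0.0143) rose, called in 1, 1 and 2 of 6 fits. Paired by number, Ier3 lost the call (adjusted p = 0.0637). Against the antibody alone 8 rose with both stimuli, where 4.42% of all genes were called. Of these 8, Ier5 and Gadd45b were called in 6 of 6 fits, Ier3 in 4, Fosl1 and Junb in 2, and Atf3, Jund and Zfp36 in 1. The fit with 1 combined library called 5 of 25. Fos, the gene most often paired with Egr1 as an early marker, averaged 20.8 ± 7.71 CPM with both stimuli, 15.9 ± 9.51 with IL-33, 27.2 ± 10.5 with the antibody and 26.4 ± 10.7 with isotype, and was not called. The list median was 0.504 with both stimuli and 0.522 with IL-33.

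Genes described in T cells as targets of EGR2 and EGR3 did not move in 1 direction. Of 11 tested, 1 rose and 3 fell with both stimuli against isotype, where 9.88% of all genes were called and 5.47% were called higher. With IL-33 against isotype 1 rose and 2 fell, where 2.21% of all genes were called. Against the antibody alone 1 rose and 1 fell with both stimuli, where 4.42% of all genes were called. Rnf128, the ubiquitin ligase GRAIL, rose to 108 ± 36.0 CPM with both stimuli and 69.7 ± 25.4 with IL-33, against 41.7 ± 0.649 with the antibody and 24.5 ± 2.82 with isotype (log2 fold changes against isotype 2.14, adjusted p = 0.000361, and 1.51, adjusted p = 0.00703). Both calls were found in 6 of 6 leave-one-library-out fits. Against the antibody alone the log2 fold change of Rnf128 with both stimuli was 1.38 (adjusted p = 0.0108, 4 of 6 fits). Ndrg1, a stress-response gene, fell to 4.06 ± 0.356 CPM with both stimuli, against 15.9 ± 4.00 CPM with isotype (-1.97, adjusted p = 0.00171). It stood at 6.76 ± 1.43 CPM with IL-33 and 6.84 ± 2.56 CPM with the antibody, whose log2 fold change against isotype was -1.22, without a call. With both stimuli against isotype Cdkn1b, which encodes the cell cycle inhibitor p27, fell by 0.98 (adjusted p = 0.00163). Dgka, which encodes a diacylglycerol kinase, fell by 0.84 there (adjusted p = 0.00935). Ndrg1, Cdkn1b and Dgka were each called in 6 of 6 fits, and Dgka had an adjusted p of 0.0756 in the fit with 1 combined library. In that fit the adjusted p against the antibody alone was 0.0577 for Rnf128 and 0.233 for Cdkn1b. With IL-33 against isotype Cdkn1b fell by 0.88 (adjusted p = 0.00731, 4 of 6 fits). Ndrg1 fell by 1.24 there (adjusted p = 0.0498), a call lost in each of 6 fits and in the paired one (adjusted p = 0.0616). Against the antibody alone Cdkn1b fell by 0.69 with both stimuli (adjusted p = 0.0242, 2 of 6 fits). The medians of this list were -0.158 with both stimuli and 0.00235 with IL-33 against isotype.

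**Figure D5:**
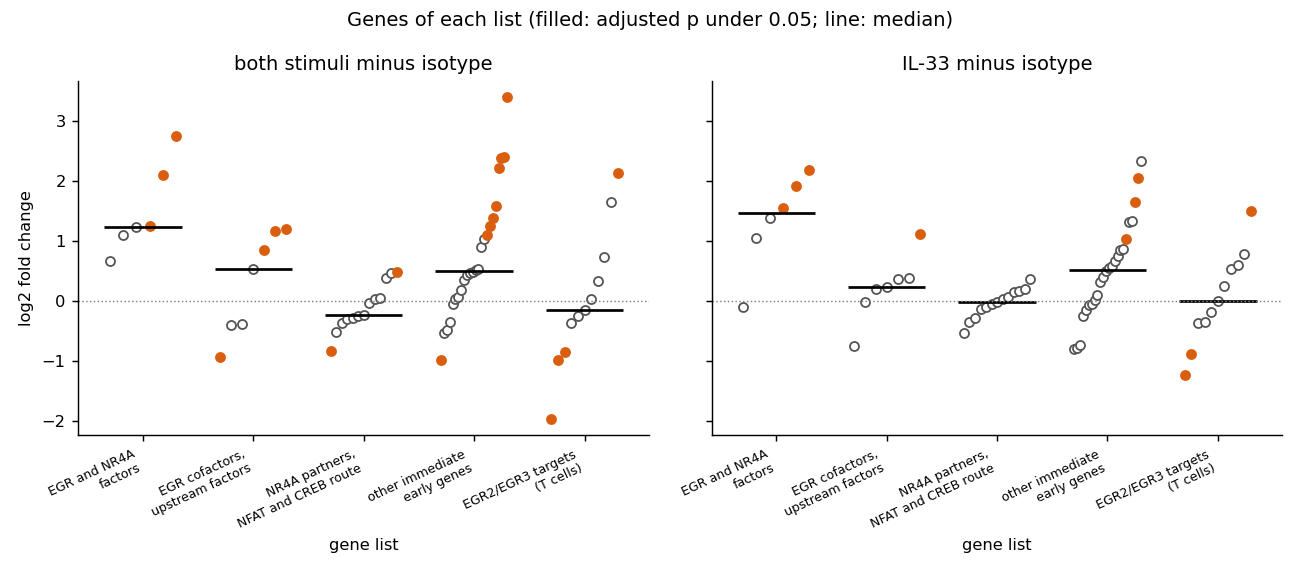
Log2 fold changes of the tested genes of 5 lists for both stimuli against isotype (left) and IL-33 against isotype (right); filled points have an adjusted p under 0.05 in edgeR and lines are medians. The EGR and NR4A genes have medians of 1.24 and 1.47, and the NR4A partners -0.241 and -0.00945.

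Under the antibody alone, edgeR called none of these genes in any of the 4 lists. At an unadjusted p under 0.05, where 370 of all 14547 genes lay, there were 2 of 7 EGR cofactors, 0 of 13 NR4A partners, 1 of 24 other immediate early genes and 2 of 11 target genes, and neither DESeq2 nor limma voom made a call. The same held for both stimuli against IL-33 alone, with 2, 2, 3 and 3 genes in the same order and 2526 of all genes, and for the interaction, with 0, 0, 2 and 0 and 1150 of all genes.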

How the data were processed

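RNA sequencing libraries of 12 eosinophil cultures, 3 in each of 4 groups, were grouped by their labels. The table that the authors deposited holds raw read counts of 54532 genes. Per the submitters' processing notes, fastp, FastQC 0.11.8, STAR 2.6.1d, featureCounts 1.5.0-p3 and DESeq2 were used on mm10. Which annotation release was counted, and whether by strand, is not given in the sources used here, though coordinates of 6 of 6 members equal GENCODE M21, where no other gene overlaps them. The authors' normalized counts were not used here. Total counts ran from 11686603 to 17137988 per library.

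From the counts, edgeR 4.0.16 (R 4.3.3) was fitted by the quasi-likelihood method to all 12 libraries, with TMM scaling, the filterByExpr filter and no replicate block. All 6 members were among the 14547 genes tested. Benjamini-Hochberg adjustment ran over all of them within each of 6 comparisons, and an adjusted p under 0.05 was a call. CPM use the TMM factors, and kilobases the deposited gene length. Log2 CPM for likeness had a pseudocount of 0.5. Intervals are 95% intervals of the fit. The fits were tested on simulated counts.

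The members, lists and tests were chosen with earlier results of these data known. Named are the members, the 3 genes of highest Pearson r with each among genes averaging 5 CPM or more, and up to 4 called genes of each list per comparison. Further list genes are named as well, chosen after their values were seen, among them those without a call. Alternatives were DESeq2 1.42.0, limma 3.58.1 voom with sample weights, RLE factors, other filters, a replicate block, only the groups compared, and libraries left out.

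Deviations from group means, over 9178 genes, were correlated between libraries with the same number. They gave 0.313, 0.424 and 0.237 for IL-33 and isotype, all over 0.1, so these were taken as paired in an alternative fit. None of the other 4 pairs of groups compared passed in all 3. For the antibody and isotype the correlations were 0.43, -0.124 and 0.105. Falling short of this rule does not show that libraries are unpaired. Epx stood at 665, 254 and 118 CPM in the antibody libraries and at 637, 277 and 123 CPM in the isotype libraries, in order of number. Egr2 did not follow the number, at 31.7, 31.7 and 41.1 CPM and 16.9, 18.2 and 14.7 CPM. The fit reported has no replicate block, so its values use no pairing by number in any comparison, IL-33 against isotype included.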

Additional observations from a re-analysis of the deposited data

Results flagged for a closer look

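Egr3 is singled out because its libraries lay on opposite sides under the antibody with and without IL-33. Every combined library lay below the IL-33 mean, at 0.722 to 0.954 of it, and every antibody library lay above the isotype mean, at 1.14 to 1.53 times it. No other member met this rule, and the share of all genes tested that meets it was not counted. For Egr3 the difference between the antibody effects was -0.71 on the log2 scale. By edgeR's interaction test it had an unadjusted p of 0.0927 and an adjusted p of 0.590 and was not called. The IL-33 mean of Egr3 rests on 1 library at 73.8 CPM beside others at 33.0 and 32.9 CPM. With 1 library left out the difference ran from -0.931 to -0.216, and the value nearest 0 was the one without that library.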

How the results depend on the processing

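Of 546 comparisons of a value with an alternative, 22 reversed and the others kept the direction. With 1 library left out, 211 kept direction and side of the threshold, 22 lost a call, 4 gained one and 15 reversed. Under the other alternatives these were 261, 3, 23 and 7. Most values were not called in the fit reported, and such a value kept its side by staying uncalled. With 1 library left out, calls for IL-33 against isotype held in 1 (Egr2), 1 (Nr4a1) and 4 (Egr3) of 6 fits. With both stimuli against isotype they held in 6, 6 and 4, and against the antibody alone in 2 (Egr2) and 2 (Nr4a1). For IL-33 against isotype, 5 members were called without an expression filter and 5 with limma voom, and 0 to 5 with 1 library left out. For the antibody against isotype, 2 were called without the filter, 1 with only the groups compared and 2 with these and the replicate block. For both stimuli against isotype, 5 were called with DESeq2, 5 without the filter and 5 with the strict filter of 5 CPM in 3 libraries, which dropped Nr4a2, and 2 to 4 with 1 library left out. Against the antibody alone, limma voom called 0, and 0 to 2 were called with 1 library left out. The cause of these moves was not tested.

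Reversals were all of uncalled values. Between both stimuli and IL-33, limma voom gave -0.294 for Nr4a1 and -0.27 for Nr4a3, and Egr1 was 0.103 with the replicate block and only the groups compared. The interaction of Nr4a1 was 0.0176 with the block in all 12 libraries. Without combined libraries 2 and 3, a fit that leaves 1 library and assumes its spread, it was 0.305 for Nr4a1, 0.0686 for Egr2 and 0.303 for Nr4a3. With 1 library left out, Nr4a2 ran from -0.893 to 0.46 for IL-33 against isotype and from -0.053 to 0.523 for both stimuli against the antibody. Both stimuli against IL-33 ran from -0.493 to 0.631 for Egr1, -0.526 to 0.18 for Egr3, -0.221 to 0.706 for Nr4a1 and -0.41 to 0.317 for Nr4a3. The interaction ran from -0.414 to 0.522 for Nr4a1 and -0.21 to 1.15 for Nr4a2.

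The replicate block in all 12 libraries changed no member's call for IL-33 against isotype (Nr4a1 adjusted p = 0.0495). For both stimuli against isotype, where the correlations by number did not all pass (0.481, 0.332 and -0.302), it added Nr4a3 (adjusted p = 0.0404). Counts of all genes called for IL-33 against isotype were 322 in the fit reported, 806 with DESeq2, 683 without the filter, 2089 with limma voom and 1235 with the block and only the groups compared. For both stimuli against isotype they were 1437, against 2404 with DESeq2, 738 with only the groups compared, 916 with the block as well and 651 without combined libraries 2 and 3. For both stimuli against the antibody they were 643, against 1627 with DESeq2, 1600 without the filter, 424 with limma voom, 242 with only the groups compared, 350 with the block as well and 220 without those libraries. For the antibody against isotype they were 0, against 70 without the filter and 50 with the block and only the groups compared. For both stimuli against IL-33 and for the interaction they were 0, against 786 and 86 without the filter. With 1 library left out they ran from 515 to 2916 for both stimuli against isotype, 124 to 2839 against the antibody, 0 to 2116 against IL-33 and 116 to 488 for IL-33 against isotype, and the first 3 of these were highest without combined library 1. The order of levels per kilobase was the same in 4 of 4 groups with RLE factors. Nr4a2 had 4 to 64 counts per library.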
